A study of Mus musculus with 24 samples.

Results

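The genes described here are 35 genes of cholesterol and fatty acid synthesis, followed in splenic B cells on 24 expression arrays. By role they are 7 enzymes of the mevalonate arm, 11 enzymes from squalene to cholesterol, 6 regulators and a sterol carrier, 4 enzymes of fatty acid synthesis and 7 elongases and desaturases. A gene was read from the brightest, by its mean over the 24 arrays, of the probe sets that the platform annotation assigns to its symbol alone. Such a probe set was found for 34 of the 35 genes, and all 34 passed the filter on dim signals among 14318 genes tested. Expression of Acat2 was not analysed here. The filter kept a gene with a signal above the 40th percentile of all signals of that array, on at least 3 arrays. Of the 34 genes, 32 exceeded that level on every array, Tm7sf2 was at or under it on 4 arrays and Fads2 on 9.

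The KO groups are B cells of C57BL/6 mice, 6 to 8 weeks old, whose Nfatc1 gene has exon 3 between loxP sites, combined with mb1-cre, a Cre recombinase placed in Cd79a, a gene active throughout the B cell lineage. NFATc1 is a transcription factor that calcium and calcineurin switch on. The WT groups are B cells of control mice of the same strain and age, and the labels do not give the alleles of these controls. Spleen cells of each genotype were kept for 0, 3, 8 or 16 h with anti-IgM, which binds and clusters B cell receptors and so mimics antigen, and B cells were then enriched with beads. Each of the 8 groups has 3 biological replicates. Cells cultured for 3, 8 or 16 h without anti-IgM are not part of the design, so stimulation and time in culture cannot be told apart. Whether replicates of the same number came from the same mouse is not stated, and the p-values measure the spread between these samples.

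Cholesterol is built from acetyl-CoA through mevalonate and isoprenoid intermediates to squalene, which is closed to lanosterol and trimmed in several steps to cholesterol. The transcription factor SREBP-2, encoded by Srebf2, drives these enzymes, and SREBP-1, encoded by Srebf1, drives mainly those of fatty acid synthesis. Both precursors are held in the endoplasmic reticulum with their escort Scap by Insig proteins while sterols are plentiful, and are cut to active factors in the Golgi when sterols fall. Lymphocytes that leave quiescence grow before they divide and need new membrane lipid.

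All values are log2 of MAS5 signals. A level of one probe set is not comparable with that of another, so levels are compared only within a gene. The arrays had medians between 6.22 and 6.98, with the highest medians on KO 8 h replicate 2 and KO 16 h replicate 2. WT replicate 2 stood apart at all 4 times by male-type expression (low Xist, high Eif2s3y). Of the B cell markers, 6 of 7 were tested and lay above the filter level on all 24 arrays. Their summed signal was 94380 to 116800 at 0 h, 33360 to 38870 at 3 h, 39010 to 47600 at 8 h and 43230 to 51120 at 16 h in KO arrays. In WT arrays it was 102200 to 113500, 34480 to 42880, 36240 to 45180 and 38280 to 48890 at the same times. None of the marker genes tested for T cells (5 of 7), NK cells (3 of 4), macrophages (5 of 6), neutrophils (4 of 5) or platelets (3 of 3) was at 0 on any array. No erythroid marker was tested (0 of 4). Of the T cell markers tested, Cd3e and Cd3d were at or under the filter level on 20 of 24 arrays each. Cd3g was so on 19 arrays, Thy1 on 14 and Cd8a on 0. The T cell sum was 296.5 to 639.8, 287.7 to 358.1, 253.1 to 284.8 and 204.1 to 340.1 at the 4 times from 0 to 16 h in KO arrays and 270.8 to 364.4, 260.6 to 343.1, 245.3 to 360.8 and 240.4 to 327.7 in WT arrays. The NK cell sum was highest at 0 h and lower later, at 165.6 to 1729, 113.5 to 521.7, 97.4 to 272.2 and 40.4 to 90.6 in KO arrays and 251.4 to 662.2, 171.4 to 209.8, 71.3 to 159.2 and 114.1 to 166.2 in WT arrays. The neutrophil sum was 502.9 to 3920, 368.6 to 2436, 259.6 to 1835 and 477 to 3473 in KO arrays, and it was lower with time in WT arrays, at 2171 to 3217, 1485 to 2455, 630.3 to 1341 and 686.4 to 905. Over all times the platelet sum was 380.6 to 755.4 in KO arrays and 331.9 to 745.8 in WT arrays. The macrophage sum was 4067 to 8322, 1917 to 3118, 2005 to 4356 and 3234 to 9585 over the 4 times in KO arrays and 4382 to 11210, 1671 to 6235, 1686 to 4640 and 2051 to 4414 in WT arrays. Markers of dividing cells (7 of 8 tested) moved with time. Their summed signal was 4190 to 5941, 2631 to 3102, 2042 to 2791 and 3382 to 5628 at 0, 3, 8 and 16 h in KO arrays, and 3360 to 4542, 1977 to 2487, 1794 to 2578 and 3208 to 5900 in WT arrays. The part of these shifts in the changes of the lipid genes was not tested. In such bulk RNA, fewer cells of a type and less RNA per cell cannot be told apart.

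Within hours of anti-IgM most genes of this set were higher than at 0 h in both genotypes. Most of the enzymes that make cholesterol rose, with the highest means at 8 h, together with their activator Srebf2, the feedback protein Insig1 and the sterol carrier Stard4. Fasn, the synthase that builds palmitate, had its highest mean at 3 h, and the brightest probe sets of the desaturase Scd1 and the elongase Elovl5 fell. A gene is called here at an adjusted p under 0.05 in limma's moderated test, with Benjamini-Hochberg adjustment over all 14318 genes.

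At 3 h against 0 h, 17 of the 34 genes were called higher and 5 lower in KO cells, where 16.6% of all genes were called higher and 21.7% lower. In WT cells 18 were called higher and 3 lower at 3 h, against 17% and 21.3% of all genes. At 8 h, 23 were called higher and 2 lower in KO cells, against 17.3% and 14.4% of all genes. WT cells at 8 h had 23 called higher and 3 lower, against 17.7% and 15.7%. At 16 h the counts were 19 higher and 3 lower in KO cells, against 19.4% and 16.4% of all genes, and 21 higher and 3 lower in WT cells, against 20.9% and 18.5%. The 2 genotypes share no array in the means of these comparisons. They share 1 estimate of the spread, taken over all 24 arrays, so the calls of the 2 genotypes are not independent. All 23 genes called higher at 8 h in KO cells are the 23 called higher in WT cells. At 3 h the 17 called higher in KO cells are 17 of the 18 of WT cells, with Mvd called in WT cells alone. At 16 h the 19 of KO cells are 19 of the 21 of WT cells, with Elovl6 and Fads1 called in WT cells alone. The tests of KO change minus WT change called 0 of the 34 genes at 3, 8 and 16 h, where limma called 0%, 0% and 0.021% of all genes, and at an unadjusted p under 0.05 they held 1, 0 and 0 of the 34, against 2.3%, 3.11% and 4.36% of all genes. The genes called lower in both genotypes were Acss2, Scd2 and Elovl6 at 3 h, Scd1 and Elovl5 at 8 h, and Acss2, Scd1 and Elovl5 at 16 h.

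Some of these calls depended on the setting. With every array scaled to a common median, 5 calls in KO cells were lost: Ebp (adjusted p = 0.307) and Elovl6 (0.0663) at 3 h, Elovl5 (0.336) and Scd1 (0.137) at 8 h, and Elovl5 (0.0578) at 16 h. In WT cells those of Elovl6 at 3 h (adjusted p = 0.168) and of Acss2 (0.117) and Elovl5 (0.479) at 8 h were lost. Quantile normalization ended the call of Elovl6 at 3 h in KO cells (adjusted p = 0.0611) and WT cells (0.103) and that of Acss2 at 8 h in WT cells (0.0629). It added calls of Pmvk at 16 h in KO cells (adjusted p = 0.00948) and WT cells (0.042) and of Elovl6 at 16 h in KO cells (0.019). With the 4 male-type arrays left out, WT calls were lost for Elovl6 at 3 h (adjusted p = 0.183), for Mvk (0.0625), Acss2 (0.157) and Elovl5 (0.0559) at 8 h, and for Mvk (0.128), Mvd (0.0524) and Fads1 (0.0522) at 16 h. Mvk was then called lower at 3 h in WT cells, with a difference of -1.40 (adjusted p = 0.00253). In KO cells the call of Elovl5 at 8 h was lost as well (adjusted p = 0.0647), as it was with no filter (0.0574), without trend (0.0792) and without the 2 arrays of highest median (0.0805). Without those 2 arrays Dhcr7 at 8 h was not called in KO cells (adjusted p = 0.0724).

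The median log2 difference over the 34 genes was 0.44, 1.21 and 0.89 after 3, 8 and 16 h in KO cells, where the median of all genes was -0.11, 0.02 and 0.08. In WT cells it was 0.50, 1.09 and 0.98, where the median of all genes was -0.14, -0.04 and 0.05. With every array scaled to a common median, the median of all genes at 3 h became 0.04 in KO cells and 0.10 in WT cells, a shift of more than 0.1 in both, and the median of the 34 genes became 0.59 and 0.74. The heat map of change by time shows the genes behind these medians.

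**Figure D1:**
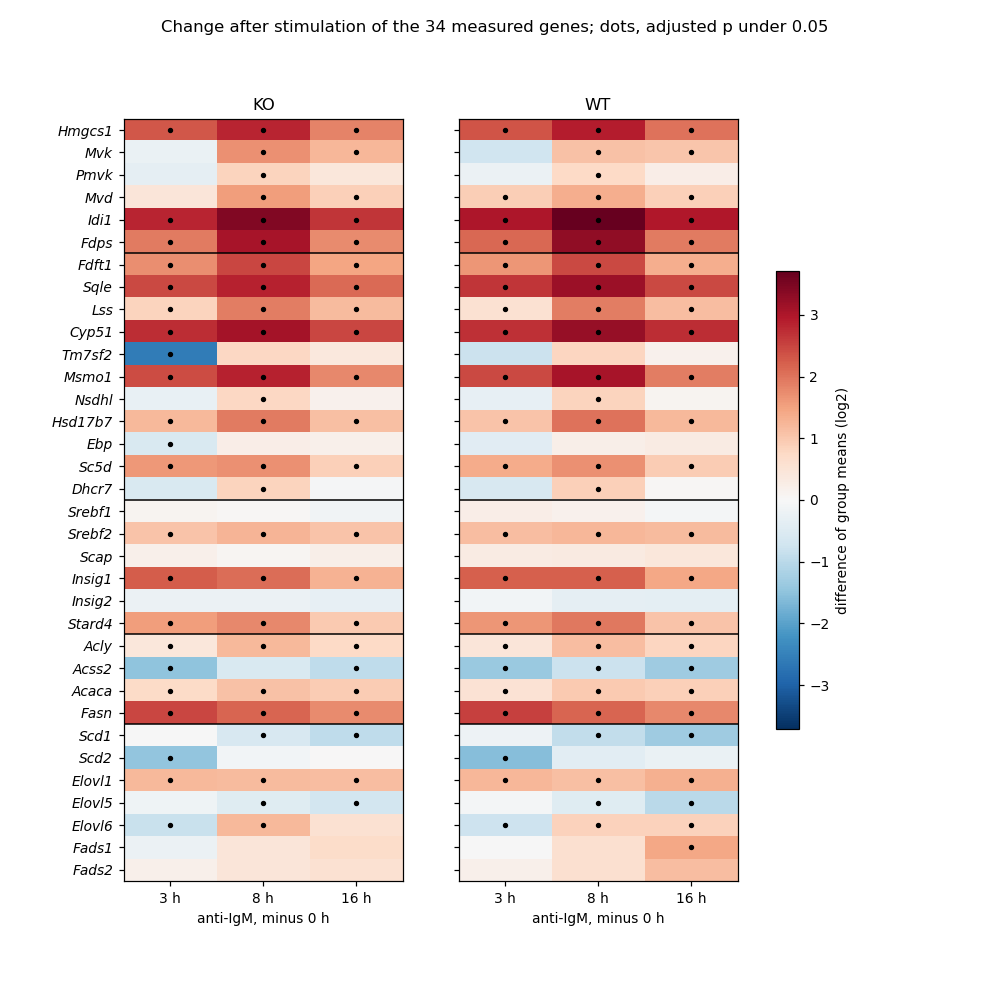
Heat map of the log2 difference of group means (n = 3 arrays each) from 0 h of the same genotype (colour, red higher and blue lower) at 3, 8 and 16 h of anti-IgM (columns) for the 34 genes (lines of the map, with roles divided by black lines), KO cells left and WT cells right, with a dot where the adjusted p is under 0.05. Idi1 at 8 h is the darkest red in both genotypes, most sterol enzymes are darker at 8 h than at 3 or 16 h, and Scd1 and Elovl5 are blue with dots at 8 and 16 h.

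Promoter sequence was at hand for 28 of the 35 genes, Acat2 among them, in 37 windows that run from 250 bases before to 50 bases after an annotated transcript start (RefSeq, build GRCm38.p6). The 200 bases before the start are shown for 6 genes chosen for their time course: Hmgcs1, Idi1, Msmo1 and Fasn, which were called higher at 3 h, and Mvk and Nsdhl, which were called higher at 8 h and not at 3 h. Capitals mark CCAAT on either strand (written ATTGG where it lies on the other strand), the sequence bound by the factor NF-Y, and TCACNCCAC on either strand, which is contained in the sterol element that SREBP factors bind.
Hmgcs1, chr13:119690151-119690350, plus strand: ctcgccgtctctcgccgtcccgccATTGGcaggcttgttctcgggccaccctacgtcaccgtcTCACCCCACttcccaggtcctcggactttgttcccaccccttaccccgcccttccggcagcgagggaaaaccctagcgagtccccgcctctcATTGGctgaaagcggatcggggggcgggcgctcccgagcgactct
Idi1, chr13:8885406-8885605, plus strand: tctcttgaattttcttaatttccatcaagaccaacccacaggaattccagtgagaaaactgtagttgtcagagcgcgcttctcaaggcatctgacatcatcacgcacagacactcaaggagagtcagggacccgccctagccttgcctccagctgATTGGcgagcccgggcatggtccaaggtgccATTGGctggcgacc
Msmo1, chr8:64733579-64733778, minus strand: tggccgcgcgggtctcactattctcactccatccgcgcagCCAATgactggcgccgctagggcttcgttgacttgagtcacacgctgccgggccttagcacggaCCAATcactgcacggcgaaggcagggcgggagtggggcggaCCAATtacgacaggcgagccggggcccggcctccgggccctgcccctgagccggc
Fasn, chr11:120824548-120824747, minus strand: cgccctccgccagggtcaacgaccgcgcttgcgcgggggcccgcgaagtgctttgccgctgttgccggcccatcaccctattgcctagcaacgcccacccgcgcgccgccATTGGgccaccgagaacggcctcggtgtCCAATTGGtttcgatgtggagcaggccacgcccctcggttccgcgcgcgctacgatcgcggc
Mvk, chr5:114444069-114444268, plus strand: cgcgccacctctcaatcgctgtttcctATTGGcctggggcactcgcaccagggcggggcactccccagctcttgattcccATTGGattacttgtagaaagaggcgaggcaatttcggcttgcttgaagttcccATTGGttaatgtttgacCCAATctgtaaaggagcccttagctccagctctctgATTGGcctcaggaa
Nsdhl, chrX:72918321-72918520, plus strand: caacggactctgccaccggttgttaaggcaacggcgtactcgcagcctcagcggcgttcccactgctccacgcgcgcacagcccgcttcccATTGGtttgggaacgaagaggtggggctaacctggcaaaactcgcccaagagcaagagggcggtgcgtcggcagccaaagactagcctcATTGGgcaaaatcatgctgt
CCAAT was present on either strand in the windows of 23 of the 28 genes (82.1%), and in 42.2% of 11530 tested genes with windows of the same length. GGGCGG, the core of Sp1 sites, was present in 82.1% of the 28 genes and 62.9% of the tested genes, and the E-box CACGTG in 21.4% and 11%. TCACNCCAC was present in 1 of the 28 genes, Hmgcs1 (3.57%), and in 1.47% of the tested genes. The early and the late genes shown do not separate by CCAAT, which all 6 hold. A match of letters is a description of the window and not of binding.

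Of the 6 measured enzymes of the mevalonate arm, all were called higher at 8 h in both genotypes, 3 already at 3 h in KO cells and 4 in WT cells. Hmgcs1 makes HMG-CoA at the entry of the pathway. In KO cells its signals were 11.36, 11.19 and 10.64 at 0 h, 13.42, 13.62 and 13.05 at 3 h, 13.91, 14.40 and 13.37 at 8 h and 12.58, 13.09 and 13.05 at 16 h. In WT cells they were 10.57, 11.20 and 10.54 at 0 h, 13.49, 13.02 and 12.79 at 3 h, 13.91, 13.86 and 13.29 at 8 h and 12.41, 12.68 and 13.24 at 16 h. All 9 stimulated arrays of a genotype lay above its 3 arrays at 0 h. The log2 difference from 0 h was 2.30 (SE 0.27, adjusted p = 2.13e-07) at 3 h, 2.83 (SE 0.27, adjusted p = 1.46e-08) at 8 h and 1.84 (SE 0.27, adjusted p = 5.34e-06) at 16 h in KO cells, where SE is limma's standard error. In WT cells it was 2.33 (SE 0.27, adjusted p = 1.7e-07), 2.91 (SE 0.27, adjusted p = 7.04e-09) and 2.00 (SE 0.27, adjusted p = 1.28e-06). At 8 h Hmgcs1 was thus 7.11-fold higher in KO cells and 7.54-fold higher in WT cells.

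Idi1 isomerises the isoprenoid building block, and had the largest difference of the set at 8 h in both genotypes. KO cells had Idi1 signals of 10.24, 9.70 and 9.37 at 0 h, 12.76, 12.58 and 12.41 at 3 h, 13.21, 13.61 and 12.76 at 8 h and 12.20, 12.43 and 12.66 at 16 h. WT cells had Idi1 signals of 9.12, 9.55 and 9.50 at 0 h, 12.70, 12.23 and 12.22 at 3 h, 13.21, 13.27 and 12.81 at 8 h and 12.08, 12.38 and 12.64 at 16 h. The stimulated arrays did not overlap those at 0 h in either genotype. Idi1 was 10.7-fold higher at 8 h in KO cells, a log2 difference of 3.42 (SE 0.22, adjusted p = 5.38e-11), and 13.1-fold higher in WT cells, a log2 difference of 3.71 (SE 0.22, adjusted p = 1.23e-11). Its 3 h differences were 2.81 (SE 0.22, adjusted p = 4.25e-10) in KO cells and 2.99 (SE 0.22, adjusted p = 1.53e-10) in WT cells.

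Fdps makes farnesyl diphosphate, the branch point between sterols and protein prenylation. Its signals in KO cells were 9.77, 9.16 and 9.42 at 0 h, 11.43, 11.17 and 11.50 at 3 h, 12.50, 12.43 and 12.57 at 8 h and 10.76, 10.79 and 12.02 at 16 h. Its signals in WT cells were 8.79, 8.81 and 9.25 at 0 h, 11.36, 10.56 and 11.33 at 3 h, 12.34, 12.11 and 12.26 at 8 h and 10.40, 10.98 and 11.25 at 16 h. No stimulated array of either genotype overlapped the 0 h arrays, and KO 16 h replicate 3 stood above the other KO arrays of that time. Fdps rose in a first step by 3 h, 1.92 (SE 0.27, adjusted p = 3.07e-06) in KO cells and 2.13 (SE 0.27, adjusted p = 6.61e-07) in WT cells. It rose again between 3 and 8 h, with differences of 8 h minus 3 h of 1.13 (SE 0.27, adjusted p = 0.00413) in KO cells and 1.15 (SE 0.27, adjusted p = 0.00449) in WT cells. This second step was not called with median scaling, with adjusted p of 0.0766 in KO cells and 0.0729 in WT cells, nor in WT cells with the male-type arrays left out, with 0.95 (adjusted p = 0.0701).

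Between mevalonate and isopentenyl diphosphate, both kinases were called at 8 h and not at 3 h, and the decarboxylase was called at 3 h in WT cells. Mvk phosphorylates mevalonate, and is one of the examples chosen after values were seen. In KO cells Mvk signals were 7.55, 7.01 and 6.57 at 0 h, 6.93, 6.65 and 6.79 at 3 h, 8.66, 8.88 and 8.68 at 8 h and 8.40, 8.01 and 8.39 at 16 h. In WT cells Mvk signals were 8.002, 6.42 and 7.25 at 0 h, 5.92, 6.96 and 6.54 at 3 h, 8.60, 7.91 and 8.39 at 8 h and 8.33, 8.12 and 8.29 at 16 h. At 3 h Mvk was not called in either genotype, with differences of -0.25 in KO cells and -0.75 in WT cells. In WT cells it was called lower at 3 h without WT 0 h replicate 2 (-1.15, adjusted p = 0.00618) or WT 3 h replicate 2 (-0.99, adjusted p = 0.0317). At 8 h it was higher by 1.70 (SE 0.33, adjusted p = 0.000219) in KO cells and 1.07 (SE 0.33, adjusted p = 0.0123) in WT cells. The WT arrays at 8 h overlapped those at 0 h by 1 array, and in this probe set the WT calls rest on single arrays. Without WT 0 h replicate 2 the adjusted p was 0.126 at 8 h and 0.143 at 16 h. Without WT 8 h replicate 1 it was 0.0628 at 8 h. A second, dimmer probe set of Mvk was called higher at 8 h, with 1.29 (adjusted p = 0.0423) in KO cells and 2.14 (0.000985) in WT cells. At 16 h that probe set was called in WT cells, 1.21 (adjusted p = 0.0471), and not in KO cells, 0.58 (0.394). Pmvk, the next kinase, was called against 0 h at 8 h only, higher by 0.82 (SE 0.18, adjusted p = 0.000909) in KO cells and 0.73 (SE 0.18, adjusted p = 0.00268) in WT cells. At 16 h it was called in KO cells without KO 16 h replicate 1 (adjusted p = 0.0484). Mvd, which decarboxylates the diphosphate, was higher at 8 h by 1.56 (SE 0.26, adjusted p = 4.16e-05) in KO cells and 1.34 (SE 0.26, adjusted p = 0.000202) in WT cells. At 3 h Mvd was not called in KO cells, 0.45 (SE 0.26, adjusted p = 0.193), and was called in WT cells, 0.90 (SE 0.26, adjusted p = 0.00706). These 3 h differences were 28.8% of the 8 h log2 change in KO cells and 67.2% in WT cells. A second, dimmer probe set of Mvd was called higher at 8 h in both genotypes, and at 3 and 16 h in neither. Its 3 h difference was the larger in KO cells, with 0.63 (adjusted p = 0.14), against 0.51 (0.243) in WT cells. The KO change minus the WT change of Mvd at 3 h was -0.45, which was not called (adjusted p = 1). The WT call at 3 h was lost without WT 3 h replicate 1 (adjusted p = 0.0637), and the KO call at 16 h, 0.89 (SE 0.26, adjusted p = 0.00807), without KO 0 h replicate 3 (adjusted p = 0.0734).

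**Figure D2:**
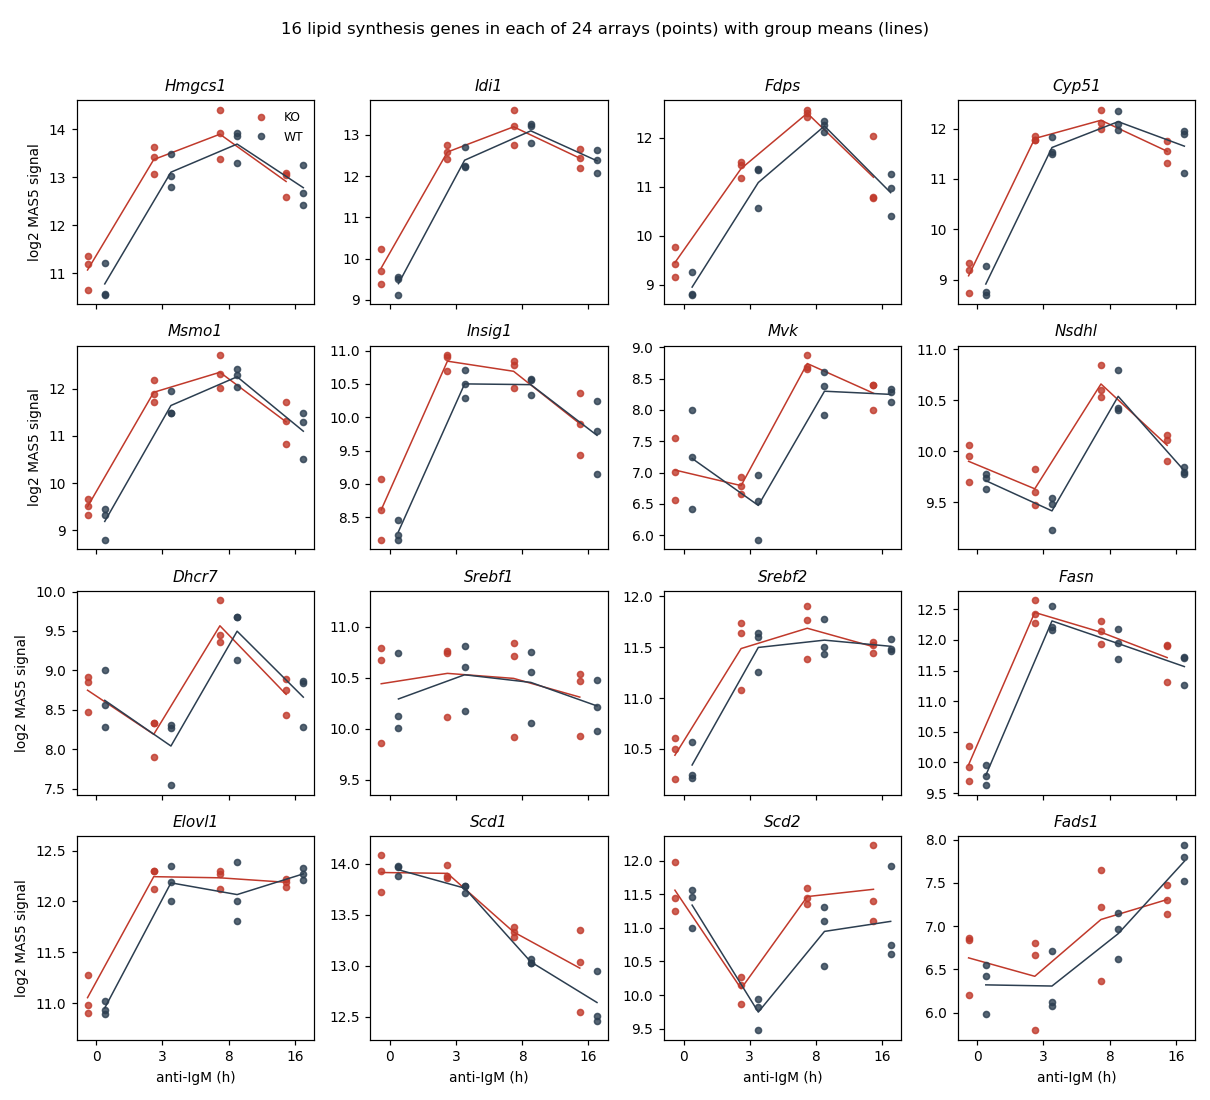
Log2 MAS5 signal (y axis) by hours of anti-IgM (x axis) for 16 genes, 1 point an array, KO in red left of WT in dark blue at each time, with lines through the means of 3 arrays and times evenly spaced. Hmgcs1, Idi1, Fdps, Cyp51 and Msmo1 stand above their 0 h arrays at every later time, Nsdhl and Dhcr7 at 8 h, Scd1 stands below from 8 h, and the times overlap for Srebf1.

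The 11 enzymes from squalene to cholesterol split into a larger early group and a smaller late one. In each genotype 7 were called higher at 3 h and 9 at 8 h. Fdft1, squalene synthase, commits farnesyl diphosphate to sterols. In KO cells Fdft1 signals were 9.64, 9.53 and 9.25 at 0 h, 11.25, 11.29 and 11.08 at 3 h, 12.08, 12.15 and 11.66 at 8 h and 10.70, 10.94 and 11.21 at 16 h. In WT cells Fdft1 signals were 9.14, 9.46 and 9.35 at 0 h, 11.33, 10.61 and 10.88 at 3 h, 12.04, 11.90 and 11.34 at 8 h and 10.29, 10.65 and 11.08 at 16 h. All stimulated arrays lay above those at 0 h of the same genotype. Fdft1 was higher by 1.73 (SE 0.21, adjusted p = 3.39e-07) at 3 h and 2.49 (SE 0.21, adjusted p = 2.2e-09) at 8 h in KO cells. It was higher by 1.62 (SE 0.21, adjusted p = 8.84e-07) at 3 h and 2.44 (SE 0.21, adjusted p = 2.27e-09) at 8 h in WT cells.

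Sqle, squalene epoxidase, adds the oxygen that later becomes the hydroxyl group of cholesterol. KO arrays had Sqle signals of 9.66, 9.58 and 8.96 at 0 h, 11.77, 11.95 and 11.82 at 3 h, 12.25, 12.49 and 12.02 at 8 h and 11.22, 11.45 and 11.82 at 16 h. WT arrays had Sqle signals of 9.05, 9.14 and 8.86 at 0 h, 11.90, 11.52 and 11.54 at 3 h, 12.22, 12.32 and 12.03 at 8 h and 11.24, 11.48 and 11.65 at 16 h. Every stimulated array was above every 0 h array of its genotype by more than the spread within a group. At 8 h the difference from 0 h was 2.85 (SE 0.18, adjusted p = 3.48e-11) in KO cells and 3.17 (SE 0.18, adjusted p = 5.62e-12) in WT cells, 7.23-fold and 9.02-fold.

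Cyp51, which removes a methyl group from lanosterol, had signals of 9.33, 9.19 and 8.73 at 0 h, 11.77, 11.86 and 11.78 at 3 h, 12.12, 12.37 and 12.001 at 8 h and 11.32, 11.56 and 11.76 at 16 h in KO cells. In WT cells Cyp51 signals were 8.70, 9.28 and 8.77 at 0 h, 11.84, 11.54 and 11.49 at 3 h, 12.09, 12.35 and 11.97 at 8 h and 11.12, 11.88 and 11.95 at 16 h. The 3 h arrays already stood near the 8 h arrays in both genotypes. The difference of 3 h minus 0 h was 2.72 (SE 0.20, adjusted p = 1.62e-10) in KO cells and 2.71 (SE 0.20, adjusted p = 1.6e-10) in WT cells, and that of 8 h minus 3 h was not called, at 0.36 and 0.51. The WT difference was called without WT 16 h replicate 1 (adjusted p = 0.0408).

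Msmo1, a methylsterol oxidase of the demethylation steps, had signals of 9.51, 9.67 and 9.33 at 0 h, 11.87, 12.17 and 11.71 at 3 h, 12.30, 12.71 and 12.02 at 8 h and 10.84, 11.32 and 11.73 at 16 h in KO cells. In WT cells Msmo1 signals were 8.80, 9.44 and 9.33 at 0 h, 11.95, 11.49 and 11.48 at 3 h, 12.29, 12.42 and 12.04 at 8 h and 10.51, 11.30 and 11.49 at 16 h. No stimulated array overlapped the 0 h arrays of its genotype. Msmo1 rose by 2.42 (SE 0.24, adjusted p = 2.09e-08) at 3 h in KO cells and 2.45 (SE 0.24, adjusted p = 1.61e-08) in WT cells.

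Sc5d, a desaturase late in the pathway, had signals of 10.36, 10.18 and 10.15 at 0 h, 11.86, 11.79 and 11.88 at 3 h, 11.89, 11.87 and 11.98 at 8 h and 10.90, 10.90 and 11.52 at 16 h in KO cells. In WT cells Sc5d signals were 9.996, 10.09 and 10.20 at 0 h, 11.59, 11.29 and 11.55 at 3 h, 11.87, 11.80 and 11.70 at 8 h and 10.70, 11.08 and 11.32 at 16 h. Every stimulated array was above the 0 h arrays of its genotype, and the KO arrays at 3 h were above the WT arrays at 3 h. Sc5d rose by 1.62 (SE 0.15, adjusted p = 6.45e-09) at 3 h in KO cells and 1.38 (SE 0.15, adjusted p = 6.72e-08) in WT cells. Hsd17b7, a ketosteroid reductase of the demethylation steps, rose less, by 1.20 (SE 0.20, adjusted p = 2.77e-05) at 3 h in KO cells and 1.06 (SE 0.20, adjusted p = 0.000124) in WT cells, and was higher by 1.93 and 2.00 at 8 h. In WT cells its 3 h rise was called in the brightest probe set alone. Its further, dimmer probe sets gave 0.56 (adjusted p = 0.0516), 0.59 (0.157) and -0.02 (0.978) there. In KO cells they gave 0.81 (adjusted p = 0.00541), 1.21 (0.0035) and 1.06 (0.0528). Lss, which closes the sterol ring, rose by 0.81 (SE 0.21, adjusted p = 0.00358) at 3 h in KO cells and 0.56 (SE 0.21, adjusted p = 0.0429) in WT cells, and by 1.90 and 1.90 at 8 h. The WT call of Lss at 3 h was lost without any one of 5 arrays (WT 0 h replicate 1 or 3, or any WT 3 h array), with adjusted p between 0.0646 and 0.17. A second, dimmer probe set of Lss gave larger 3 h differences of 1.72 in KO cells and 1.41 in WT cells.

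The late enzymes were Nsdhl and Dhcr7. Nsdhl, a dehydrogenase of the demethylation steps encoded on the X chromosome, had signals of 10.06, 9.95 and 9.70 at 0 h, 9.59, 9.82 and 9.47 at 3 h, 10.85, 10.60 and 10.53 at 8 h and 9.90, 10.11 and 10.16 at 16 h in KO cells. In WT cells Nsdhl signals were 9.62, 9.73 and 9.77 at 0 h, 9.54, 9.48 and 9.22 at 3 h, 10.79, 10.40 and 10.42 at 8 h and 9.84, 9.80 and 9.78 at 16 h. The 3 h arrays lay under all 0 h arrays in WT cells and overlapped them in KO cells, and the 8 h arrays lay above all of them in both. The 3 h difference was not called, at -0.27 in KO cells and -0.30 in WT cells. At 8 h Nsdhl was higher by 0.76 (SE 0.14, adjusted p = 0.000118) in KO cells and 0.83 (SE 0.14, adjusted p = 3.67e-05) in WT cells, and at 16 h it was not called. Dhcr7, the reductase of the last step in one branch, was also chosen after values were seen. In KO cells Dhcr7 signals were 8.92, 8.85 and 8.47 at 0 h, 8.33, 8.33 and 7.90 at 3 h, 9.45, 9.89 and 9.36 at 8 h and 8.44, 8.89 and 8.75 at 16 h. In WT cells Dhcr7 signals were 8.57, 9.01 and 8.28 at 0 h, 8.31, 8.27 and 7.54 at 3 h, 9.68, 9.68 and 9.13 at 8 h and 8.84, 8.86 and 8.28 at 16 h. The 8 h arrays were the highest in both genotypes, and replicate 3 was the lowest array in 7 of the 8 groups. Dhcr7 was higher at 8 h by 0.82 (SE 0.24, adjusted p = 0.0113) in KO cells and 0.88 (SE 0.24, adjusted p = 0.00628) in WT cells. The KO call was lost without KO 8 h replicate 2 (adjusted p = 0.0706) or KO 0 h replicate 3 (adjusted p = 0.0626). At 3 h Dhcr7 was not called, at -0.56 in KO cells and -0.58 in WT cells, but was called lower in KO cells without KO 0 h replicate 3 (adjusted p = 0.047) and in WT cells without WT 0 h replicate 3 (adjusted p = 0.0309) or WT 3 h replicate 1 (adjusted p = 0.0453).

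Tm7sf2 and Ebp were not called at 8 h. Tm7sf2, a sterol reductase, had dim signals of 6.62, 6.59 and 6.80 at 0 h, 5.37, 3.45 and 3.42 at 3 h, 7.59, 7.23 and 7.50 at 8 h and 6.85, 7.47 and 6.89 at 16 h in KO cells. In WT cells Tm7sf2 signals were 6.10, 6.67 and 6.96 at 0 h, 6.35, 5.84 and 5.17 at 3 h, 7.57, 6.67 and 7.86 at 8 h and 6.30, 6.77 and 7.17 at 16 h. The KO arrays at 3 h were below all other KO arrays and overlapped the WT arrays at 3 h. All 3 of them and WT 3 h replicate 3 were at or under the filter level, so their distance from 0 h is not a measured fold. Tm7sf2 fell at 3 h in KO cells, -2.59 (SE 0.46, adjusted p = 6.59e-05), and was not called in WT cells, -0.79 (SE 0.46, adjusted p = 0.193). The test of the difference between these changes gave an adjusted p of 1. Ebp, a sterol isomerase also on the X chromosome, fell at 3 h in KO cells, -0.56 (SE 0.19, adjusted p = 0.0202), and was not called in WT cells, -0.41 (SE 0.19, adjusted p = 0.0909). The KO call of Ebp was lost without KO 0 h replicate 1 or 3 or KO 3 h replicate 1 or 2, with adjusted p between 0.063 and 0.111. The WT difference was called without WT 0 h replicate 2 (adjusted p = 0.0429) or WT 3 h replicate 3 (adjusted p = 0.0269).

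By the brightest probe set, 3 of the 6 regulators and carriers were called higher at all 3 stimulated times in both genotypes (Srebf2, Insig1 and Stard4). The other 3 were called at none (Srebf1, Scap and Insig2). Srebf2, the gene of SREBP-2, had signals of 10.61, 10.50 and 10.20 at 0 h, 11.64, 11.74 and 11.08 at 3 h, 11.90, 11.77 and 11.39 at 8 h and 11.52, 11.55 and 11.44 at 16 h in KO cells. In WT cells Srebf2 signals were 10.24, 10.57 and 10.22 at 0 h, 11.60, 11.64 and 11.26 at 3 h, 11.50, 11.78 and 11.43 at 8 h and 11.48, 11.47 and 11.58 at 16 h. The stimulated arrays were all above the 0 h arrays of their genotype. Srebf2 was higher by 1.05 (SE 0.16, adjusted p = 1.36e-05) at 3 h in KO cells and 1.15 (SE 0.16, adjusted p = 3.64e-06) in WT cells. In this brightest probe set it stayed at that level, with 16 h differences from 0 h of 1.07 and 1.17. A second, dimmer probe set of Srebf2 was called higher at 3 and 8 h in both genotypes. At 16 h that probe set was not called in KO cells, 0.42 (adjusted p = 0.0903), and was called in WT cells, 0.54 (0.0228).

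Srebf1, the gene of SREBP-1, had signals of 10.79, 10.67 and 9.86 at 0 h, 10.74, 10.77 and 10.12 at 3 h, 10.72, 10.84 and 9.92 at 8 h and 10.47, 10.54 and 9.92 at 16 h in KO cells. In WT cells Srebf1 signals were 10.12, 10.75 and 10.01 at 0 h, 10.61, 10.81 and 10.17 at 3 h, 10.55, 10.76 and 10.05 at 8 h and 10.22, 10.47 and 9.98 at 16 h. All 4 times overlapped in both genotypes, and replicate 3 was the lowest array in all 8 groups. The differences from 0 h lay between -0.13 and 0.24, none with an adjusted p under 0.561. The probe set does not tell the SREBP-1a and SREBP-1c transcripts apart here.

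Scap, the escort of the precursors, had signals of 10.48, 10.67 and 10.08 at 0 h, 10.88, 10.72 and 10.19 at 3 h, 10.61, 10.61 and 10.26 at 8 h and 10.83, 10.76 and 10.32 at 16 h in KO cells. In WT cells Scap signals were 10.34, 10.48 and 10.01 at 0 h, 10.74, 10.83 and 10.20 at 3 h, 10.61, 11.04 and 10.18 at 8 h and 10.71, 10.92 and 10.46 at 16 h. As for Srebf1, replicate 3 was the lowest array in all 8 groups. None of the differences from 0 h was called, the largest being 0.42 (SE 0.22, adjusted p = 0.158) at 16 h in WT cells. A second, dimmer probe set of Scap was called higher at 3 h in WT cells, 0.77 (adjusted p = 0.0325), and not at 8 or 16 h. In KO cells that probe set was not called, with 0.51 (adjusted p = 0.165) at 3 h.

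Insig1, which holds the precursors back and is itself a target of the active factors, had signals of 8.16, 8.60 and 9.07 at 0 h, 10.90, 10.69 and 10.94 at 3 h, 10.44, 10.84 and 10.79 at 8 h and 9.44, 9.90 and 10.37 at 16 h in KO cells. In WT cells Insig1 signals were 8.16, 8.23 and 8.47 at 0 h, 10.29, 10.50 and 10.71 at 3 h, 10.57, 10.34 and 10.56 at 8 h and 9.15, 9.79 and 10.25 at 16 h. Every stimulated array exceeded every 0 h array of its genotype. Insig1 was 4.69-fold higher at 3 h in KO cells, a difference of 2.23 (SE 0.24, adjusted p = 8.62e-08), and 4.65-fold higher in WT cells, a difference of 2.22 (SE 0.24, adjusted p = 8.82e-08). It was not called between 3 and 8 h, with differences of -0.15 in KO cells and -0.01 in WT cells.

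Insig2, its relative, had signals of 9.98, 9.55 and 9.63 at 0 h, 9.46, 9.56 and 9.48 at 3 h, 9.54, 9.56 and 9.42 at 8 h and 9.54, 9.34 and 9.35 at 16 h in KO cells. In WT cells Insig2 signals were 9.48, 9.59 and 9.94 at 0 h, 9.83, 9.61 and 9.27 at 3 h, 9.11, 9.55 and 9.35 at 8 h and 9.38, 9.43 and 9.15 at 16 h. The arrays at 16 h were below those at 0 h in both genotypes, without a call. Its differences from 0 h ranged from -0.35 to -0.10. Both further probe sets of Insig2, which are dimmer, were called lower at 16 h in KO cells (adjusted p = 0.0291 and 0.0268), and at 3 h (0.0126 and 0.0297) and 8 h (0.0254 and 0.0462) in WT cells. One of them was also called lower at 3 h in KO cells, with -0.70 (adjusted p = 0.00226). Stard4, which carries cholesterol between membranes, rose by 1.54 (SE 0.17, adjusted p = 8.2e-08) at 3 h in KO cells and 1.63 (SE 0.17, adjusted p = 3.28e-08) in WT cells, and was higher by 1.77 and 1.94 at 8 h.

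Of the 4 enzymes of fatty acid synthesis, Fasn, Acaca and Acly were called higher at 3, 8 and 16 h in both genotypes, and Acss2 was called lower at 3 and 16 h. Fasn builds palmitate from malonyl-CoA. In KO cells Fasn signals were 10.26, 9.92 and 9.70 at 0 h, 12.65, 12.41 and 12.28 at 3 h, 12.30, 12.15 and 11.93 at 8 h and 11.91, 11.32 and 11.90 at 16 h. In WT cells Fasn signals were 9.96, 9.78 and 9.63 at 0 h, 12.56, 12.21 and 12.16 at 3 h, 11.95, 12.18 and 11.68 at 8 h and 11.70, 11.27 and 11.72 at 16 h. The 3 h mean was the highest in both genotypes, with some overlap between 3 and 8 h, and no stimulated array overlapped those at 0 h. Fasn was 5.6-fold higher at 3 h in KO cells, a difference of 2.49 (SE 0.18, adjusted p = 1.62e-10), and 5.74-fold higher in WT cells, a difference of 2.52 (SE 0.18, adjusted p = 1.23e-10). By 16 h the difference from 0 h was 1.75 in KO cells and 1.77 in WT cells.

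Acly, which cuts citrate to supply acetyl-CoA in the cytosol, did not overlap between any 2 times in either genotype. It rose by 0.43 (SE 0.089, adjusted p = 0.000364) at 3 h and 1.20 (SE 0.089, adjusted p = 4.1e-10) at 8 h in KO cells, and by 0.46 (SE 0.089, adjusted p = 0.000188) and 1.14 (SE 0.089, adjusted p = 6.09e-10) in WT cells. Acaca, which makes malonyl-CoA, rose by 0.72 (SE 0.21, adjusted p = 0.00657) at 3 h in KO cells and 0.55 (SE 0.21, adjusted p = 0.0369) in WT cells, and was higher by 1.08 and 0.96 at 8 h. The 3 h calls of Acaca rest on single arrays. The KO call was lost without KO 0 h replicate 3 (adjusted p = 0.0663), and the WT call without WT 0 h replicate 1 or 3 or WT 3 h replicate 1 or 2, with adjusted p between 0.0598 and 0.162. A second, dimmer probe set of Acaca was called higher at 3 and 8 h in both genotypes. At 16 h that probe set was not called, with 0.06 (adjusted p = 0.903) in KO cells and 0.50 (0.197) in WT cells. Acss2, which makes acetyl-CoA from acetate, fell at 3 h, with -1.49 (SE 0.28, adjusted p = 0.000133) in KO cells and -1.36 (SE 0.28, adjusted p = 0.000359) in WT cells. At 16 h it was lower, with differences of -0.93 (SE 0.28, adjusted p = 0.0111) in KO cells and -1.31 (SE 0.28, adjusted p = 0.000501) in WT cells. The KO call at 16 h was lost without KO 16 h replicate 1 (adjusted p = 0.0706). At 8 h Acss2 was called in WT cells only, -0.81 (SE 0.28, adjusted p = 0.0285), and this call was lost without WT 0 h replicate 1 (adjusted p = 0.177) or WT 8 h replicate 2 (adjusted p = 0.16). A second, dimmer probe set of Acss2 was called lower at 3 h in WT cells, -1.90 (adjusted p = 0.00316), and not in KO cells, -1.15 (0.0699). It was not called at 8 or 16 h, with -0.17 (adjusted p = 0.843) in KO cells and -0.89 (0.166) in WT cells at 16 h.

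The 7 elongases and desaturases did not move together. Elovl1, which lengthens saturated very long chains, rose by 1.19 (SE 0.13, adjusted p = 5.38e-08) at 3 h in KO cells and 1.23 (SE 0.13, adjusted p = 3e-08) in WT cells and stayed up, with 1.13 and 1.32 at 16 h. Scd1, which turns stearate into oleate, moved the other way. Its signals in KO cells were 13.93, 13.72 and 14.09 at 0 h, 13.86, 13.88 and 13.98 at 3 h, 13.33, 13.28 and 13.38 at 8 h and 13.04, 12.54 and 13.35 at 16 h. Its signals in WT cells were 13.98, 13.88 and 13.97 at 0 h, 13.71, 13.79 and 13.78 at 3 h, 13.06, 13.03 and 13.02 at 8 h and 12.51, 12.46 and 12.95 at 16 h. The 8 and 16 h arrays were below all 0 h arrays in both genotypes. Scd1 was lower at 8 h, with differences of -0.58 (SE 0.15, adjusted p = 0.00318) in KO cells and -0.90 (SE 0.15, adjusted p = 2.77e-05) in WT cells, and at 16 h, with -0.94 (SE 0.15, adjusted p = 1.57e-05) and -1.30 (SE 0.15, adjusted p = 1.1e-07). A second, dimmer probe set of Scd1 had 8 h differences of -0.43 (adjusted p = 0.234) in KO cells, not called, and -0.81 (adjusted p = 0.0169) in WT cells, called lower. At 16 h it was not called, with 0.01 (adjusted p = 0.979) in KO cells and -0.36 (adjusted p = 0.299) in WT cells, so the fall at 16 h was seen in the brightest probe set alone. Elovl5, an elongase of polyunsaturated chains, fell at 16 h, with -0.69 (SE 0.17, adjusted p = 0.00172) in KO cells and -0.99 (SE 0.17, adjusted p = 3.12e-05) in WT cells. At 8 h Elovl5 was called in both, -0.44 and -0.46, but that call was lost without any one of 19 of the 24 arrays in KO cells, with adjusted p of 0.0513 to 0.113. In WT cells it was lost without any one of 5 arrays (WT 0 h replicate 1 or 3, or any WT 8 h array), with adjusted p of 0.0588 to 0.14. A second, slightly dimmer probe set of Elovl5 was called lower in WT cells at 8 h, -0.44 (adjusted p = 0.0209), and at 16 h, -0.41 (0.0249). That probe set was not called in KO cells, with -0.29 (adjusted p = 0.15) at 8 h and -0.33 (0.0792) at 16 h.

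Scd2, a second stearoyl-CoA desaturase, dipped at 3 h and returned. In KO cells Scd2 signals were 11.98, 11.44 and 11.26 at 0 h, 9.87, 10.15 and 10.26 at 3 h, 11.36, 11.44 and 11.59 at 8 h and 11.10, 11.39 and 12.23 at 16 h. In WT cells Scd2 signals were 10.995, 11.56 and 11.46 at 0 h, 9.94, 9.47 and 9.83 at 3 h, 11.31, 10.43 and 11.10 at 8 h and 10.62, 10.75 and 11.92 at 16 h. The 3 h arrays were below all others in both genotypes. Scd2 fell at 3 h, with -1.46 (SE 0.30, adjusted p = 0.00031) in KO cells and -1.59 (SE 0.30, adjusted p = 0.000122) in WT cells, and rose between 3 and 8 h, with 1.37 (SE 0.30, adjusted p = 0.00202) and 1.20 (SE 0.30, adjusted p = 0.00719). At 8 and 16 h it was not called against 0 h. Elovl6, which lengthens palmitate to stearate, had the same dip, -0.82 (SE 0.26, adjusted p = 0.013) in KO cells and -0.76 (SE 0.26, adjusted p = 0.0219) in WT cells at 3 h, and then exceeded its 0 h level at 8 h by 1.21 (SE 0.26, adjusted p = 0.0006) and 0.84 (SE 0.26, adjusted p = 0.0122). The 3 h calls of Elovl6 were lost without KO 0 h replicate 2 (adjusted p = 0.0889) or KO 3 h replicate 3 (adjusted p = 0.0937), and without WT 3 h replicate 1 (adjusted p = 0.082) or WT 0 h replicate 2 (adjusted p = 0.177). Neither of its further, dimmer probe sets was called at 3 h. They gave 0.38 (adjusted p = 0.423) and -0.33 (0.394) in KO cells, and -0.41 (0.375) and -0.50 (0.161) in WT cells. The dip of Elovl6 was thus called in the brightest probe set alone. Its WT call at 8 h was lost without WT 0 h replicate 1 or 3 or WT 8 h replicate 3, with adjusted p of 0.0553 to 0.07. The WT call at 16 h, 0.85 (SE 0.26, adjusted p = 0.00947), was lost without WT 0 h replicate 1 (adjusted p = 0.0569) or replicate 3 (adjusted p = 0.0521), and in KO cells it was called at 16 h without KO 0 h replicate 2 (adjusted p = 0.0446).

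Fads1, a desaturase of polyunsaturated chains, had signals of 6.84, 6.86 and 6.21 at 0 h, 6.80, 6.66 and 5.79 at 3 h, 7.22, 7.65 and 6.36 at 8 h and 7.48, 7.14 and 7.30 at 16 h in KO cells. In WT cells Fads1 signals were 6.42, 5.99 and 6.55 at 0 h, 6.72, 6.13 and 6.08 at 3 h, 6.62, 7.15 and 6.97 at 8 h and 7.52, 7.93 and 7.80 at 16 h. The WT arrays at 16 h were above all other WT arrays, and the KO arrays at 16 h overlapped those at 8 h. Fads1 was called higher at 16 h in WT cells, 1.43 (SE 0.35, adjusted p = 0.00161), and not in KO cells, 0.67 (SE 0.35, adjusted p = 0.141). The difference between these changes, -0.75, had an adjusted p of 1. Without the 4 arrays of male-type expression the WT difference was 1.17, with an adjusted p of 0.0522. Fads2, its dim partner enzyme, was at or under the filter level on 9 arrays and was not called. Its WT difference at 16 h was called without KO 3 h replicate 2 (adjusted p = 0.0489) or WT 3 h replicate 3 (adjusted p = 0.0378).

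A first and a second step can be read from the differences between successive times, as the plot of the first against the second step shows. Between 3 and 8 h, 15 of the 34 genes were called higher and 1, Scd1, lower in KO cells, where 13.2% of all genes were called higher and 6.01% lower. In WT cells it was again 15 higher and 1, Scd1, lower, against 10.3% and 5.57% of all genes, and 13 genes were shared, which is 86.7% of either list. These 13 hold Fdps, Fdft1, Lss, Hsd17b7 and Acly, which had risen by 3 h, and Mvk, Pmvk, Nsdhl, Dhcr7, Tm7sf2, Ebp, Scd2 and Elovl6, which had not. By 3 h Cyp51 had covered 88.3% of its 8 h log2 change in KO cells and 84.1% in WT cells. The share was 81.3% and 79.9% for Hmgcs1, 62.9% and 64.9% for Fdps, 42.8% and 29.3% for Lss, and 115% and 117% for Fasn. The second step of Lss depended on the probe set. A second, dimmer one was not called between 3 and 8 h, with 0.14 (adjusted p = 0.778) in KO cells and 0.47 (0.23) in WT cells. Its differences from 0 h were 1.72 at 3 h and 1.86 at 8 h in KO cells, and 1.41 and 1.88 in WT cells. The WT count of 16 called genes was 10 without WT 8 h replicate 1, 10 when the 4 male-type arrays were left out (Idi1, Fdps, Fdft1, Sqle, Hsd17b7 and Ebp lost), and 7 with every array scaled to a common median, where the KO count was 10.

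**Figure D3:**
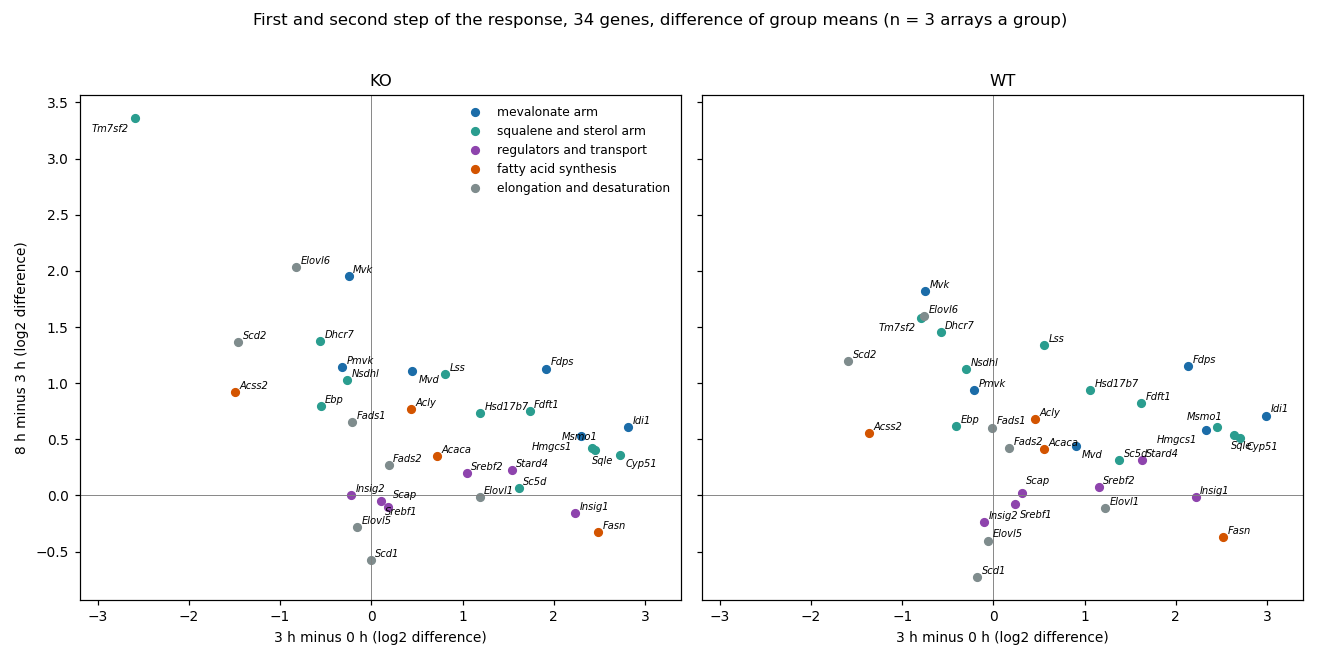
Log2 difference of 3 h minus 0 h (x axis) against that of 8 h minus 3 h (y axis) for the 34 genes, coloured by role, KO cells left and WT cells right (group means of 3 arrays). Fasn and Insig1 lie far right at or below 0 on the second step, Fdps and Fdft1 are high on both, and Mvk, Elovl6, Dhcr7, Pmvk and Nsdhl lie left of 0 and high on the second.

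From 8 to 16 h the set came down in part. In KO cells 12 of the 34 genes were called lower at 16 h than at 8 h and 0 higher, where 2.26% of all genes were called lower and 2.4% higher. In WT cells 13 were called lower and 0 higher, against 3.92% and 3.83%. The 12 of KO cells are 12 of the 13 of WT cells, with Lss called in WT cells alone (adjusted p = 0.0536 in KO cells, and called there without any one of 5 arrays, while the WT call was lost without any one of 4 arrays). They are Hmgcs1, Idi1, Fdps, Fdft1, Sqle, Msmo1, Nsdhl, Hsd17b7, Sc5d, Dhcr7, Stard4 and Acly. The median difference of the 34 genes was -0.47 in KO cells and -0.48 in WT cells, where the median of all genes was 0.03 and 0.05. Fdps had the largest fall of the set, -1.31 (SE 0.27, adjusted p = 0.00474) in KO cells and -1.36 (SE 0.27, adjusted p = 0.00192) in WT cells. At 16 h it still stood above 0 h, and so did Hmgcs1, Idi1, Fdft1, Sqle, Msmo1, Hsd17b7, Sc5d, Stard4 and Acly, while Nsdhl and Dhcr7 were not called against 0 h. For Sc5d this was called in the brightest probe set alone. Its further ones gave 0.26 (adjusted p = 0.507) and 0.37 (0.66) in KO cells, and 0.32 (0.394) and -1.17 (0.094) in WT cells. A second probe set of Msmo1 was called at 16 h in KO cells, 1.03 (adjusted p = 0.0338), and not in WT cells, 0.47 (0.365). Srebf2, Acaca and Elovl1 were not called between 8 and 16 h, with differences between -0.18 and 0.20.

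The number called in this last step is less firm than its direction. The KO count of 12 was 7 without KO 8 h replicate 1, 5 without KO 16 h replicate 1 and 6 without KO 8 h replicate 2, and 2 both with every array scaled to a common median and without the 2 arrays with the highest medians. The WT count of 13 was 7 without WT 8 h replicate 1, 7 without WT 16 h replicate 1, 8 without WT 8 h replicate 2 and 8 without WT 16 h replicate 2. It was 7 with median scaling, and 6 when the 4 male-type arrays were left out (Hmgcs1, Idi1, Sqle, Lss, Hsd17b7, Dhcr7 and Acly lost). Under median scaling the median difference of the 34 genes was -0.51 in KO cells and -0.55 in WT cells, and 4 and 6 of the 34 differences were positive.

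Over the 8 group means the genes most like Hmgcs1 were Msmo1 (Pearson's r = 0.998), Sqle (0.995), Idi1 (0.990) and Fdft1 (0.988). The median r with Hmgcs1 was 0.872 over the other 33 genes and -0.06 over all genes. Nsdhl (r = 0.974) and Pmvk (0.933) were most like Dhcr7 in the set. The means share arrays across genes, are 8 in number and are split into stimulated and unstimulated groups, so these values describe likeness of course only.

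Genes of 4 neighbouring pathways, listed for comparison, gave a mixed picture. Of all genes, 16.6%, 17.3% and 19.4% were called higher and 21.7%, 14.4% and 16.4% lower at 3, 8 and 16 h in KO cells, and 17%, 17.7% and 20.9% higher and 21.3%, 15.7% and 18.5% lower in WT cells. The counts of these lists stand beside those shares, several are near them, and nothing particular to a list is read from them. Of 16 further genes of lipid synthesis 10 were tested. In KO cells 3 were called higher and 2 lower at 3 h, 4 and 0 at 8 h, and 2 and 1 at 16 h, and in WT cells 4 and 2, 4 and 1, and 3 and 1. Slc25a1, which exports the citrate that Acly uses, averaged 8.92, 10.31, 10.50 and 10.39 at 0, 3, 8 and 16 h in KO cells and 8.73, 10.26, 10.50 and 10.36 in WT cells, and was called higher at each stimulated time. Acsl3, which activates fatty acids, averaged 8.46, 10.35, 9.32 and 8.22 in KO cells and 8.22, 9.97, 8.89 and 8.09 in WT cells, and was called at 3 and 8 h but not at 16 h. Of 16 genes of sterol efflux, storage and uptake, many of them targets of the oxysterol receptor LXR, 13 were tested, with 2 higher and 4 lower at 3 h, 4 and 3 at 8 h, and 4 and 4 at 16 h in KO cells, and 2 and 4, 3 and 4, and 3 and 5 in WT cells. The cholesterol exporter Abca1 averaged 12.36, 10.52, 8.37 and 8.34 in KO cells and 12.42, 11.12, 9.15 and 7.78 in WT cells. Mylip, which encodes a ubiquitin ligase that removes lipoprotein receptors, averaged 12.67, 9.31, 8.81 and 9.19 in KO cells and 12.59, 9.43, 9.17 and 9.09 in WT cells. Both were called lower at all 3 stimulated times in both genotypes, and the exporter Abcg1 at 8 and 16 h.

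Of 14 genes of fatty acid oxidation 12 were tested. In KO cells 0 were called higher and 4 lower at 3 h, 1 and 2 at 8 h, and 4 and 1 at 16 h, and in WT cells 0 and 4, 1 and 2, and 5 and 1. Cpt1a, which admits fatty acids to mitochondria, averaged 10.99, 9.51, 9.74 and 9.67 in KO cells and 11.09, 9.52, 9.50 and 9.46 in WT cells, and was called lower at each time. Of 11 genes of prenylation and other uses of isoprenoids 10 were tested, with 1 higher and 1 lower at 3 h, 4 and 1 at 8 h, and 3 and 1 at 16 h in KO cells, and 1 and 1, 3 and 1, and 3 and 2 in WT cells. The plot of 6 further lipid genes shows the falls of Abca1, Abcg1, Mylip and Cpt1a beside the rise of Slc25a1.

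**Figure D4:**
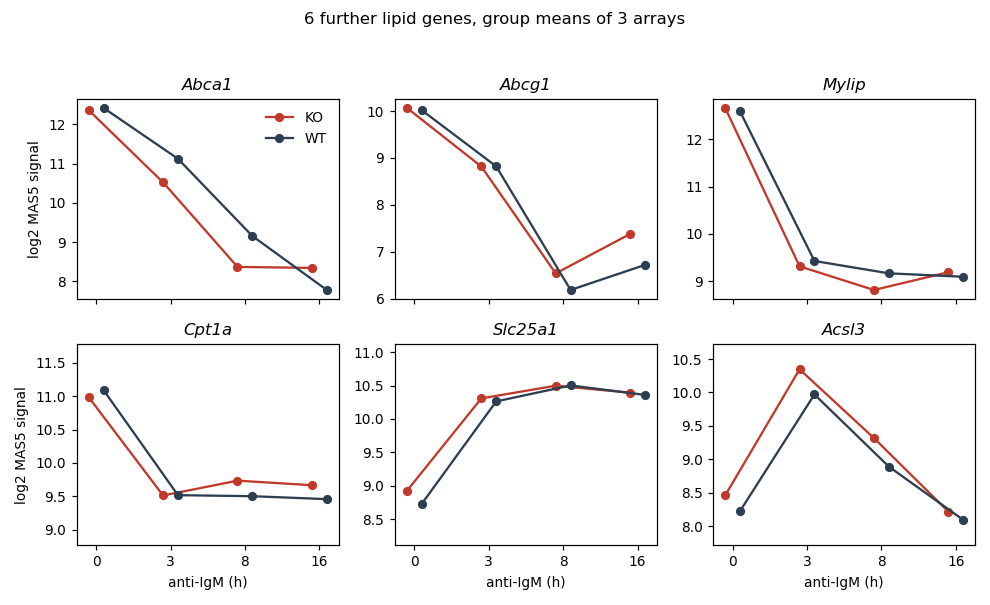
Log2 MAS5 signal (y axis, group means of 3 arrays) by hours of anti-IgM (x axis) for 6 lipid genes outside the set, KO in red and WT in dark blue. Abca1, Abcg1, Mylip and Cpt1a run downward, Slc25a1 rises by 3 h and stays up, and Acsl3 peaks at 3 h.

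Between the genotypes no gene of the set was called. The counts were 0 of 34 for KO minus WT averaged over the 4 times, where limma called 1.21% of all genes, and 0 of 34 at 0, 3, 8 and 16 h taken singly, where it called 0.0349%, 0.0559%, 0.0978% and 0.615%. At an unadjusted p under 0.05 the numbers were 7 of 34 in the averaged comparison and 1, 2, 1 and 2 of 34 at the 4 times from 0 to 16 h, against 9.65%, 3.49%, 3.71%, 5.43% and 7.08% of all genes. The count of adjusted calls was 0 under every alternative run. The moderated F-test of whether the time course differed between genotypes called 0 of the 34 genes and 0.014% of all genes, and at an unadjusted p under 0.05 it held 1 of the 34 (Tm7sf2) and 2.8% of all genes.

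The differences were small and more often positive. Averaged over the times, 29 of the 34 genes were higher in KO cells, where 54.7% of all genes were, and the median difference was 0.12 on the log2 scale, where that of all genes was 0.02. At 0, 3, 8 and 16 h taken singly, 30, 25, 30 and 25 of the 34 were higher in KO cells, against 53%, 51.9%, 55.4% and 51.3% of all genes. The genes share arrays and move together, so the number of positive differences is not a count of independent results. At 8 h the number was 20 without the 2 arrays with the highest medians and 26 with median scaling. Over the averaged differences of all 34 genes, the lowest bound of a 95% interval was -0.78 (Tm7sf2) and the highest 0.70 (Scd2).

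The smallest p-values of the averaged comparison belonged to Nsdhl, Scd2, Scd1 and Fdps. Nsdhl was higher in KO cells by 0.19 (95% interval 0.05 to 0.34, adjusted p = 0.251), and at 16 h its KO signals of 9.90, 10.11 and 10.16 did not overlap the WT signals of 9.84, 9.80 and 9.78. Scd2 was higher by 0.39 (95% interval 0.08 to 0.70, adjusted p = 0.31), and at 8 h its KO signals of 11.36, 11.44 and 11.59 did not overlap the WT signals of 11.31, 10.43 and 11.10. Scd1 was higher by 0.19 (95% interval 0.03 to 0.34, adjusted p = 0.347), with no overlap at 3 and 8 h. Fdps was higher by 0.34 (95% interval 0.06 to 0.62, adjusted p = 0.351), with no overlap at 8 h. Sc5d followed with 0.17 (95% interval 0.02 to 0.33), Fdft1 with 0.23 (0.01 to 0.44), Insig1 with 0.26 (0.01 to 0.51) and Sqle with 0.17 (-0.01 to 0.35), at adjusted p of 0.422, 0.482, 0.496 and 0.571. The smallest p at a single time was that of Tm7sf2 at 3 h, with a difference of -1.71 (95% interval -2.66 to -0.76, adjusted p = 0.471), where the KO arrays were under the filter level.

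At 0 h no gene of the set had KO and WT arrays without overlap, where 4.25% of all genes were higher and 3.56% lower in KO cells without overlap. At 3 h they were found for 2 genes, Sc5d and Scd1, both higher in KO cells, where 4.27% of all genes were higher and 3.64% lower without overlap. At 8 h 6 genes were higher in KO cells without overlap (Mvk, Fdps, Scd1, Scd2, Elovl5 and Elovl6), 17.6% of the set against 6.03% of all genes, and none lower, against 3.46%. The second probe set of Mvk had a KO minus WT difference of -0.05 at 8 h. The further ones past the filter of Scd1, Scd2, Elovl5 and Elovl6 had 0.03 to 0.30. At 16 h Mvd and Nsdhl were higher (5.88% against 6.1% of all genes) and Elovl6 and Fads1 lower (4.06% of all genes). Elovl6 thus stood above WT at 8 h and below it at 16 h, and neither difference passed the adjustment.

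**Figure D5:**
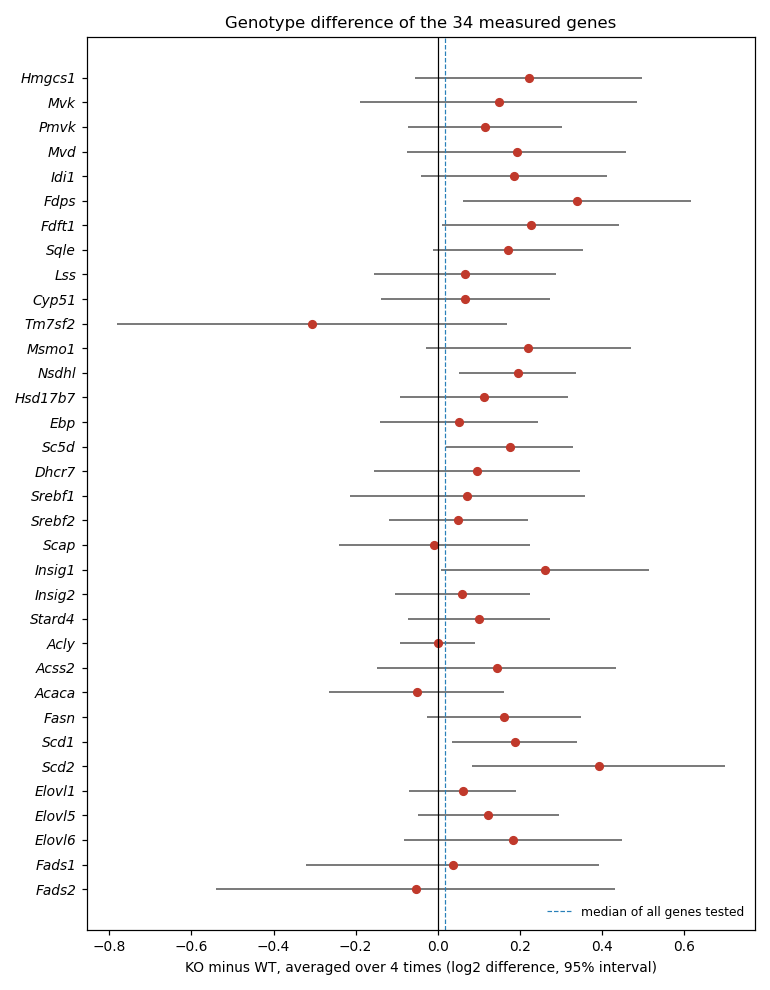
Log2 difference of KO minus WT averaged over the 4 times (x axis) with 95% intervals for the 34 genes (y axis, ordered by role, 12 arrays a genotype), with a dashed line at the median of all genes. Most points lie right of 0, the whole interval does so for 7 genes, and no gene passes the adjustment over all genes tested. The intervals treat the arrays of a genotype as independent.

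Beside these differences, markers of marginal zone B cells (5 of 6 tested) had higher summed signals in KO arrays. The sums were 20460 to 29460 at 0 h, 23070 to 28560 at 3 h, 13360 to 18110 at 8 h and 8581 to 9346 at 16 h in KO arrays. In WT arrays they were 16980 to 19410, 19460 to 21780, 10410 to 14520 and 5914 to 7057, so the genotypes overlapped at 8 h only. The part of this shift in the small differences of the lipid genes was not tested. Nfatc1 itself read 0.56 log2 higher in KO arrays over the 4 times (adjusted p = 1.1e-05), and since the position of its probes relative to exon 3 is not known here, that value checks nothing about the deletion. Rcan1, a target of NFAT factors, was lower by 0.61 (adjusted p = 0.00052).

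Of the 34 genes, 24 had 1 or more further probe sets past the filter, 43 in all. At 8 h the gene's brightest probe set was called for 34 of these 43 in KO cells, and 28 of the 34 were called in the same direction, none in the opposite one. In WT cells it was 27 of 36, again with none called opposite. At 3 h it was 24 of 34 in KO cells and 22 of 35 in WT cells, and at 16 h 19 of 34 and 23 of 37, with none called opposite. Called or not, the same sign as the brightest was found for 31 of 34 in KO cells and 31 of 35 in WT cells at 3 h. It was found for 32 of 34 and 34 of 36 at 8 h, and 30 of 34 and 34 of 37 at 16 h. The rest had the opposite sign without a call.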

How the data were processed

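Each of 24 samples of bead-enriched B cells from mouse spleen was hybridised to 1 Affymetrix array, in 8 groups of genotype and time. The deposited values are log2 signals that the authors computed with MAS5, per the submitters' processing notes, with no version given, and they were used as deposited. The number of arrays limits the precision.

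Probe sets with 1 gene symbol in the platform annotation were kept when above the 40th percentile of their own array on at least 3 arrays, and the brightest represented each of 14318 genes. Comparisons are contrasts in limma 3.58.1, run in R 4.3.3 (1 mean per group over all 24 arrays, eBayes with trend, 16 residual and 6.79 prior degrees of freedom), with Benjamini-Hochberg adjustment over all genes and calls at an adjusted p under 0.05. The script was tested on simulated data. Intervals are limma's, at 95%.

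The genes, the gene and marker lists and the tests were chosen with earlier results of these data known. Signals are printed per array for the 8 genes of lowest p in the averaged comparison of genotypes, the 10 and 5 with the largest WT differences at 16 and 3 h, and the 5 genes Srebf1, Srebf2, Insig1, Insig2 and Scap. Mvk, Dhcr7 and Tm7sf2 were added after their values were seen.

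Same-numbered replicates deviated together in the averaged comparison of genotypes, with correlations of 0.1, 0.194 and 0.319 for replicates 1, 2 and 3 over all genes. In the other comparisons at least 1 of these was under 0.1, the level set as a check for pairing. No comparison reported above was fitted with pairs, the averaged one included. The replicate number entered only in alternative runs. Whether same-numbered samples share a source is not stated. Alternatives were quantile normalization, median scaling, all probe sets tested without choosing the brightest, no filter, the 60th percentile as the filter level, the replicate number as a fixed block, genotype and replicate as a random block, eBayes without trend, set means compared 3 against 3, and each array left out. Leaving out the 4 arrays of male-type expression and the 2 with the highest medians was chosen after seeing the data.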

Additional observations from a re-analysis of the deposited data

How the results depend on the processing

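The counts of genes called against 0 h stayed within 1.5 times their value under every alternative run. Leaving out 1 array at a time gave 21 to 22 (KO 3 h), 23 to 25 (KO 8 h), 21 to 23 (KO 16 h), 18 to 22 (WT 3 h), 23 to 26 (WT 8 h) and 23 to 25 (WT 16 h), and the other settings gave 20 to 23, 23 to 25, 21 to 24, 19 to 24, 23 to 27 and 21 to 26. No gene was called between the genotypes, at any time, averaged or in the F-test, under any setting, and 0 to 0 is the range over the arrays left out. The comparisons of successive times were less firm. Leaving out 1 array gave 13 to 17 (KO 8 h minus 3 h), 5 to 15 (KO 16 h minus 8 h), 10 to 17 (WT 8 h minus 3 h) and 7 to 15 (WT 16 h minus 8 h). Median scaling gave 10, 2, 7 and 7 for these 4 comparisons, where the settings of the report gave 16, 12, 16 and 13. Leaving out the 4 male-type arrays, the WT counts were 10 and 6, and Fads1 at 16 h in WT cells kept its direction with a difference of 1.17 and an adjusted p of 0.0522. Without the 2 arrays with the highest medians the KO count for 16 h minus 8 h was 2. The cause of these changes was not tested.

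With the replicate number as a block the averaged comparison of genotypes still had 0 calls, and no other count moved by over 1.5 times. In the comparisons of times the block ended no call of a member and added several. Against 0 h the added calls were Dhcr7 lower at 3 h in KO cells (adjusted p = 0.00701) and WT cells (0.00533), Pmvk higher at 16 h in KO cells (0.0372), Ebp in WT cells at 3 h (lower, 0.00951) and 16 h (higher, 0.0473), and Scap higher in WT cells at 3, 8 and 16 h (0.0159, 0.012 and 0.00171). Between times they were Idi1 (8 h minus 3 h) and Lss, Cyp51 and Insig1 (16 h minus 8 h) in KO cells, and Cyp51, Msmo1 and Elovl5 (8 h minus 3 h) and Insig1, Scd1 and Elovl5 (16 h minus 8 h) in WT cells. These comparisons did not meet the check for pairing, so the added calls are given as values of another setting. The random block had a consensus correlation of 0.208. No detection calls were used here, so signals near the filter level (5.38 to 6.42), those of Tm7sf2 and Fads2, are the least certain.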
